A study of Homo sapiens with 8 samples.

Results

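The genes described here are 35 genes of the actin cytoskeleton and of the programme of serum response factor (SRF), followed by their ribosome footprints in 293T cells. They were taken by symbol from a fixed list that was chosen with earlier results of these data known. The data held 17179 symbols in all, and a symbol with several features was summed. Counts were found for 31 of the 35 genes, and 30 passed the filter on low counts and were tested. MYL9, a myosin light chain, had 1 count in shRNA control replicate 2, 5 in inhibitor control replicate 1 and none listed elsewhere, and ACTB, ACTG1, TPM2 and FHL1 were not analysed here. All 8 libraries came from 293T, an established line from human embryonic kidney with the large T antigen of SV40, lysed in the presence of cycloheximide, and all held counts of a row named NBD1reporter. The 4 groups of 2 libraries were a control for shRNA, a non-cleaving shRNA named shNBD1, a negative control for inhibitors, and miRNA inhibitors. The sample labels name neither the miRNAs that were inhibited nor a dose or time, and do not say how the reporter or the hairpin was introduced, and all values come from 1 cell line.

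Actin monomers join into filaments, and the pool of free monomers is held by profilin and thymosins and refilled by cofilins, which sever old filaments. Myosin II pulls on filaments that alpha-actinins and filamins cross-link and that tropomyosins, caldesmon and calponins coat. SRF is the transcription factor that ties this machinery to its own supply: its cofactors of the MRTF family are held by free actin monomers, enter the nucleus when monomers are used up, and act with SRF on genes of actin, its partners and SRF itself. SRF binds a DNA element called the CArG box, best known from the genes of smooth muscle. In cultured cells that are not muscle, such as 293T, most of these genes are housekeeping parts of the cortex and of stress fibres, whereas calponin 1 and transgelin are usually taken as marks of contractile cells.

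The CArG box was searched for in RefSeq promoter windows of GRCh38.p14, each 250 bases before to 50 bases after a gene start. The motif was 2 C, then 6 bases that are A or T, then 2 G, a form that reads as a CArG box on both strands. Of the 35 members 32 had a window there, and 7 of these held the motif (21.9%). It was in 351 of 27305 windows in the whole table (1.29%) and 119 of 10373 windows of tested genes (1.15%). Because the list was made of genes of actin and the SRF programme, this excess is no independent finding. Of 13 windows of the other SRF and MRTF targets described below, 1 held the motif (7.69%). The stretches around the motif are shown because these are the members in which the SRF element can be seen in the letters themselves, with the motif in capitals, 5′ to 3′ on the strand of the gene. They lie at chr6:43171224-43171268 (plus strand) for SRF, chr19:16067350-16067389 (plus) for TPM4, chr19:1026504-1026543 (plus) for CNN2, chrX:154374704-154374743 (minus) for FLNA, chr2:105438590-105438629 (minus) for FHL2, chr3:99876209-99876248 (minus) for FILIP1L and chr17:81512869-81512908 (minus) for ACTG1.
SRF: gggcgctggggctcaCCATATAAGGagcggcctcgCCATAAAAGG
TPM4: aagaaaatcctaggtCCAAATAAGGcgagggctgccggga
CNN2: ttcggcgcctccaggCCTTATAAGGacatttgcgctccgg
FLNA: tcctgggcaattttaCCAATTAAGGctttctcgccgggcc
FHL2: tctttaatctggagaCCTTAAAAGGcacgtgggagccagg
FILIP1L: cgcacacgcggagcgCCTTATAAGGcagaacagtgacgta
ACTG1: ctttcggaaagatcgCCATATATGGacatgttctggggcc
SRF's own window held 2 CArG boxes, from 30 to 21 and from 10 to 1 bases before the gene start, and each of the others held 1. The stretch of FILIP1L lies inside its gene span (99828811 to 100114501 on chromosome 3), so its window is at a start within the gene. A match is a string of letters and not a measured binding site, and a window without it says only that these letters are not in those bases. Neither CNN1 nor ACTA2 held the motif in this window, and TAGLN, MYL9 and ACTB had no window to search.

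Total counts ranged from 11218980 to 19854218 per library, and the listed genes together took 1.01% of the counts in both shRNA control libraries and 1.41% and 1.46% under shNBD1. Their share was 1.09% and 1.28% in the inhibitor control, against 1.23% and 1.32% in the treated libraries of that arm. Values are CPM, counts scaled to a common depth, on library sizes scaled by the trimmed mean of M-values (TMM), and fold changes are on the log2 scale with the SE implied by edgeR's quasi-likelihood test, with Benjamini-Hochberg adjustment over the 13306 genes tested and a threshold of 0.05. A footprint count moves with mRNA level and with translation alike, no RNA libraries were used here, and in lysates of many cells fewer cells of a kind cannot be told apart from less RNA per cell. No label says that replicates were separate cultures, and the p-values cover only the spread between libraries, which may be technical. For each gene the 4 groups shared a common estimate of that spread. The SE and p-values of each arm therefore also carry the spread of the other arm. MYH9, for example, had an SE of 0.157 both with shNBD1 and with the inhibitors. Replicates differed little in the shRNA arm and more in the inhibitor arm, with an SD over genes on the log2 scale of 0.187 in each shRNA group, 0.213 in the inhibitor control and 0.246 in its treated group. The chi-square per degree of freedom between the counts of a group's 2 libraries grows with spread beyond counting error. It was 1.42 in the shRNA control, 2.79 under shNBD1, 15.1 in the inhibitor control and 21.6 in the treated group of the inhibitor arm. Results of that arm are also given without inhibitor control replicate 1 and inhibitors replicate 2, a choice made with earlier results of these data known. The reporter fell with shNBD1, from 9105 ± 33.2 to 7136 ± 137 CPM (mean ± SD, n = 2 each, adjusted p = 0.00527).

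With shNBD1 many genes of the programme had more footprints, with the largest folds in transgelin and calponin 1. Of the 30 tested members 16 rose and none fell, where 9.18% of all tested genes rose and 9.15% fell (18.3% in either direction). Since the members were chosen with earlier results of these data known, this excess is a description and not an independent finding. The median log2 fold change of the 30 was 0.48, against 0.00128 over all genes, and the single values ran from -0.15 to 4.37. Both shNBD1 libraries lay above both control libraries for 26 members and below them for 3, while 34.7% of all genes lay above and 34.3% below. Of the 14 members that did not pass, 5 had an unadjusted p under 0.05. In all 21 of 30 members did, where 4419 of all 13306 tested genes did. The 16 became 8 without shRNA control replicate 1, 9 without its replicate 2 and 10 without either shNBD1 library, where 1.96%, 2.61%, 3.95% and 2.39% of all genes rose.

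**Figure D1:**
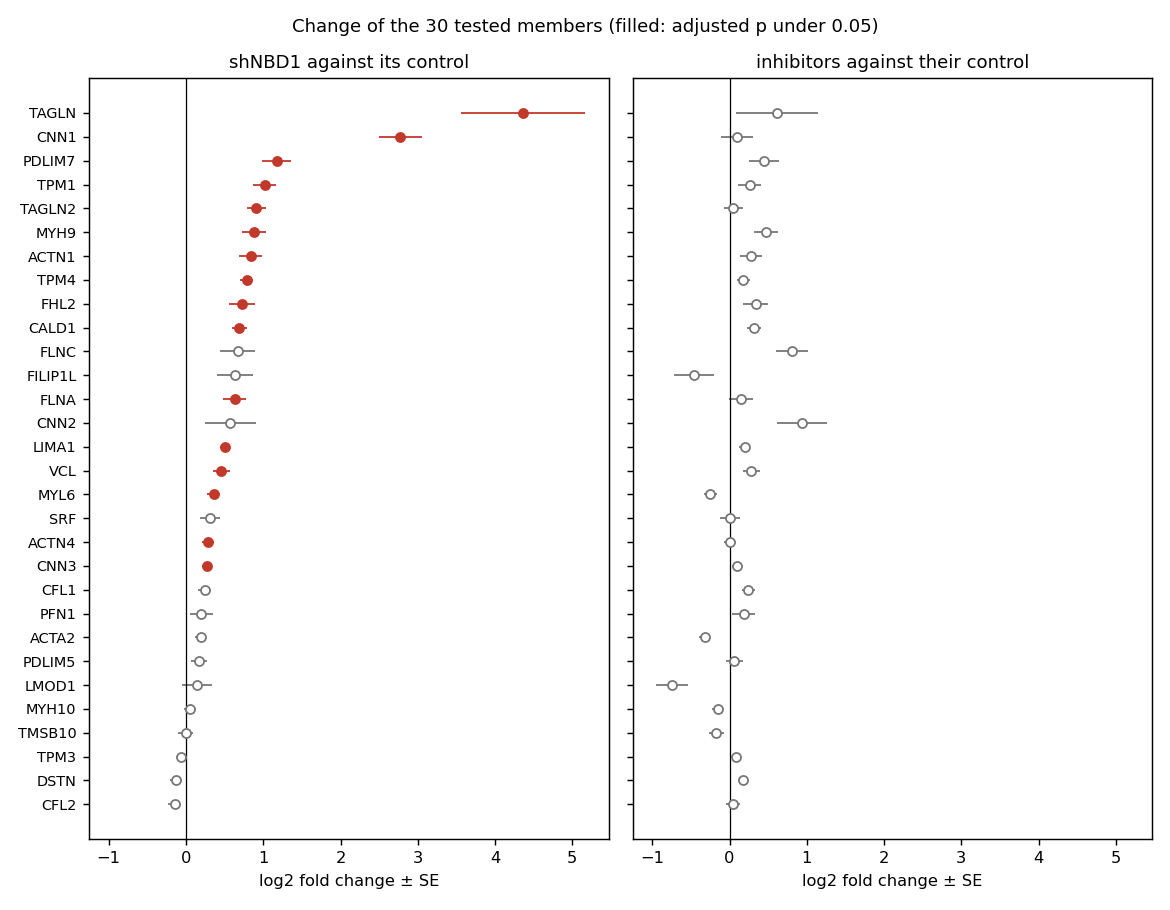
Log2 fold change with its SE (x axis) of the 30 tested members (y axis, ordered by the change with shNBD1), for shNBD1 on the left and the miRNA inhibitors on the right, n = 2 libraries a group. Filled points passed an adjusted p of 0.05: 16 members on the left, from CNN3 at 0.27 to TAGLN at 4.37, and none on the right.

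Of the calponins and transgelins 4 of 5 rose with shNBD1, and 2 of them, TAGLN and CNN1, had the largest folds of the 30 members. TAGLN (chromosome 11, 117199294 to 117207465, GRCh38), transgelin, which binds and bundles actin filaments, had 1.73 and 1.47 CPM in the shRNA control libraries and 34.9 and 31.8 CPM with shNBD1. These values rest on 26 and 18 counts in the control and 491 and 468 with the hairpin. It rose 20.6-fold, a log2 fold change of 4.37 ± 0.80 (adjusted p = 0.00486), and ranked 4 from the top among the fold changes of all genes. CNN1 (chromosome 19, 11538851 to 11550323), calponin 1, which restrains actomyosin ATPase activity, went from 0.664 and 0.900 CPM, or 10 and 11 counts, to 5.48 and 5.17 CPM, or 77 and 76 counts. Its log2 fold change was 2.77 ± 0.28 (adjusted p = 0.000198). Both genes thus had few footprints in the shRNA control and several times more with shNBD1, with no overlap between the groups. TAGLN2, the transgelin that most cell types use, rose from 732 and 727 to 1342 and 1402 CPM (0.91 ± 0.13, adjusted p = 0.00118). CNN3, the calponin of non-muscle cells, rose less, from 218 and 209.8 to 266 and 251 CPM (0.27 ± 0.065, adjusted p = 0.0163). CNN2, another calponin, had 29.8 and 25.5 CPM in the control and 39.5 and 43.1 CPM with shNBD1 and did not pass (0.57 ± 0.33, adjusted p = 0.247), though it did under 2 of 18 alternatives. The call of TAGLN was lost without shRNA control replicate 1 and without its replicate 2. That of CNN3 was lost when any 1 of the 4 libraries compared was left out. The log2 fold changes of TAGLN and CNN3 ran from 4.27 to 4.50 and from 0.23 to 0.32 over the 18 alternatives. CNN1 and TAGLN2 passed under all 18 alternatives.

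**Figure D2:**
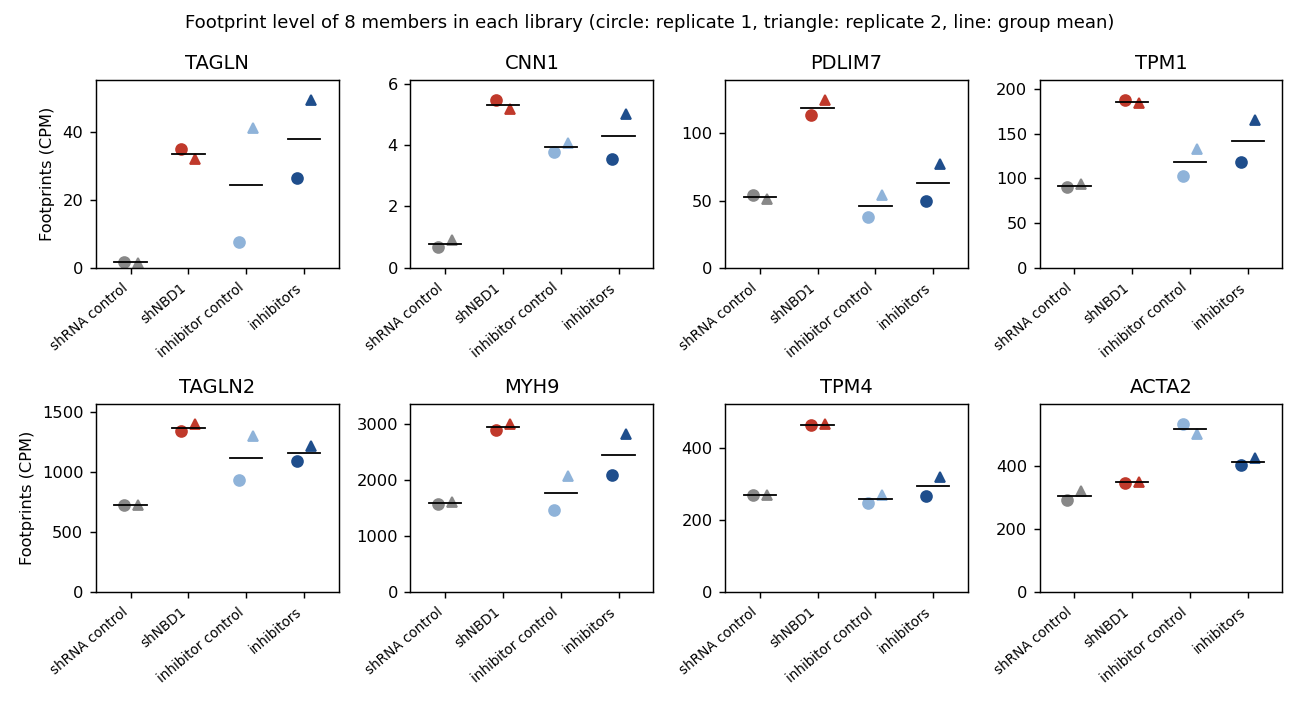
Footprint level (y axis, CPM, from 0) of 8 members in each library, by group (x axis), with circles for replicate 1, triangles for replicate 2 and a line at the group mean. TAGLN is near 0 in the shRNA control alone, and in the inhibitor control its libraries lie at 7.62 and 41.0 CPM, while in the shRNA arm the symbols of each group nearly coincide.

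Of the tropomyosins and caldesmon 3 of 4 tested genes rose. TPM1, a tropomyosin, which lies along the filament and gates access of myosin and cofilin, had 90.2 and 93.2 CPM in the control and 188 and 184 CPM with shNBD1, 2.02-fold more (1.02 ± 0.15, adjusted p = 0.00157). TPM4, another tropomyosin and one of the members with a CArG box, had 269.9 and 271 CPM against 465 and 466 CPM (0.78 ± 0.086, adjusted p = 0.000328). For both the groups are far apart and the replicates nearly equal. TPM3 had 287 and 287 CPM in the control and 283 and 268 CPM with shNBD1, and did not pass (-0.061 ± 0.069, adjusted p = 0.575). CALD1, caldesmon, which ties tropomyosin to myosin, rose from 83.0 and 90.0 to 139.8 and 139 CPM (0.69 ± 0.093, adjusted p = 0.00109). The make-up of the tropomyosin counts differed between the groups, and TPM3 held 44.4% and 44.1% of the summed counts of TPM1, TPM3 and TPM4 in the control and 30.3% and 29.2% with shNBD1. These shares are of counts, not of molecules, since transcripts of different length collect different numbers of footprints. TPM1, TPM4 and CALD1 passed under all 18 alternatives.

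In myosin II, 2 of 3 tested genes rose with shNBD1. MYH9, the heavy chain of non-muscle myosin IIA, the form that drives fast contraction of the cortex, had 1575 and 1613 CPM in the control and 2885 and 2994 CPM with shNBD1, a log2 fold change of 0.88 ± 0.16 (adjusted p = 0.0043). MYH10, the heavy chain of myosin IIB, had 635 and 617 CPM in the control and 655 and 642 CPM with shNBD1 (0.052 ± 0.077, adjusted p = 0.679). MYH9 thus rose while MYH10 did not pass, and the share of MYH10 in the summed counts of MYH9, MYH10 and MYH14 was 28.3% and 27.2% in the control and 18.3% and 17.4% with shNBD1. MYL6, the essential light chain that both heavy chains share, rose from 791 and 834 to 1046 and 1036 CPM (0.36 ± 0.081, adjusted p = 0.0131). MYH9 did not pass without shRNA control replicate 1, and MYL6 did not pass when any 1 of the 4 libraries compared was left out. Over the 18 alternatives their log2 fold changes ran from 0.86 to 0.91 and from 0.32 to 0.40.

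Of the cross-linkers and anchors 5 of 6 rose, and the sixth had both libraries above its control. ACTN1, alpha-actinin 1, which bundles filaments in stress fibres, went from 253 and 255 to 444 and 464 CPM (0.84 ± 0.15, adjusted p = 0.00372). ACTN4, its widely expressed paralog, went from 681 and 675 to 807 and 849 CPM (0.29 ± 0.078, adjusted p = 0.0291). The smaller change was thus in ACTN4, and the share of ACTN1 in the counts of the pair was 27.1% and 27.4% in the control and 35.5% and 35.3% with shNBD1. FLNA, filamin A, which cross-links filaments into networks and links them to the membrane, had 1939 and 1963 CPM in the control and 2927 and 3104 CPM with shNBD1 (0.63 ± 0.15, adjusted p = 0.0185). FLNC, the filamin of striated muscle, had 51.7 and 56.1 CPM in the control and 83.4 and 87.8 CPM with shNBD1 and missed the threshold (0.67 ± 0.22, adjusted p = 0.0616), and it passed under 8 of 18 alternatives. Both shNBD1 libraries lay above both controls for each of these filamins, and only FLNA passed. VCL, vinculin, which anchors filaments at adhesions, rose from 255 and 252 to 346 and 352 CPM (0.46 ± 0.11, adjusted p = 0.0148). LIMA1, which bundles filaments and slows their turnover, rose from 59.2 and 59.2 to 85.0 and 82.9 CPM (0.50 ± 0.071, adjusted p = 0.00131). Calls of ACTN1 and LIMA1 held under all 18 alternatives. Those of ACTN4, FLNA and VCL were lost when any 1 of the 4 libraries compared was left out. Their log2 fold changes ran from 0.25 to 0.32, 0.59 to 0.67 and 0.45 to 0.47 over the 18 alternatives.

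SRF itself did not pass, although its libraries did not overlap. It had 19.7 and 19.4 CPM in the control and 22.5 and 26.0 CPM with shNBD1, a log2 fold change of 0.31 ± 0.13 (adjusted p = 0.111), and passed under 3 of 18 alternatives. The adaptors beside it had mixed results. FHL2, a LIM-domain protein that binds SRF and integrins, rose from 48.9 and 49.4 to 80.2 and 82.8 CPM (0.73 ± 0.17, adjusted p = 0.0136). PDLIM7, which docks kinases and tropomyosin on filaments, rose 2.26-fold, from 54.4 and 51.2 to 113 and 125 CPM (1.17 ± 0.19, adjusted p = 0.00258), and its relative PDLIM5 had 76.0 and 67.7 CPM in the control and 83.0 and 78.9 CPM with shNBD1 (0.17 ± 0.11, adjusted p = 0.301). PDLIM7 thus moved and PDLIM5 did not pass. FILIP1L, a coiled-coil protein related to a filamin partner, had 1.86 and 2.13 CPM in the control and 2.92 and 3.27 CPM with shNBD1, and did not pass (0.64 ± 0.23, adjusted p = 0.0823). FHL2 lost its call when any 1 of the 4 libraries compared was left out, and PDLIM7 kept it under all 18 alternatives. The log2 fold change of FHL2 ran from 0.71 to 0.75 over these alternatives.

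None of the 6 proteins that handle monomers or filament ends passed with shNBD1, and their log2 fold changes lay between -0.15 and 0.24. PFN1, profilin, which feeds monomers to growing ends, had 373 and 338 CPM in the control and 385 and 431 CPM with shNBD1 (0.20 ± 0.15, adjusted p = 0.373), and reads can be shared with its copy PFN1P2, which held 921 to 2228 counts. CFL1, cofilin 1, had 471 and 482 CPM in the control and 570.2 and 558 CPM with shNBD1 (0.24 ± 0.087, adjusted p = 0.0786). CFL2 and DSTN, the muscle cofilin and destrin, were below their control in both libraries, at -0.15 ± 0.087 and -0.13 ± 0.074 on the log2 scale (adjusted p = 0.264 and 0.247). So within the cofilin family the signs differ and no member passed. TMSB10, a thymosin that sequesters monomers, had 379.8 and 348 CPM in the control and 364 and 362 CPM with shNBD1 (-0.0033 ± 0.098, adjusted p = 0.985). LMOD1, a leiomodin that seeds filaments in smooth muscle, had 3.98 and 4.01 CPM against 4.69 and 4.15 CPM (0.14 ± 0.19, 0.637). CFL1 passed under 8 of 18 alternatives, PFN1 and DSTN under 2 each, and CFL2, TMSB10 and LMOD1 under none. A p above the threshold does not show that these genes stayed the same.

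ACTA2, the actin of smooth muscle, was the only listed actin with a value, at 291 and 320.4 CPM in the control and 347 and 350.0 CPM with shNBD1 (0.19 ± 0.071, adjusted p = 0.0899). Actin genes are nearly identical in their coding sequence, and how reads that match several genes were counted is not given in the sources used here, so the level of each actin row is uncertain. Other rows of actin sequence had high counts too, from 6123 to 13037 for ACTC1, 5206 to 13605 for ACTG2, 9848 to 16951 for ACTA1 and 25467 to 50225 for POTEE, whose protein ends in an actin domain. ACTC1 and ACTG2, actins of heart and smooth muscle, rose with shNBD1 (0.48 ± 0.096 and 0.52 ± 0.10, adjusted p = 0.00729 and 0.0063), and ACTA1, of skeletal muscle, did not pass (0.40 ± 0.13, adjusted p = 0.0573). Which actin gene gave these reads cannot be told apart from the counts.

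With the miRNA inhibitors no member passed, where 0.0376% of all tested genes rose and 0.0827% fell in edgeR's test (0.12% in either direction). The median log2 fold change of the 30 members was 0.16, against 0.00662 over all genes. An unadjusted p under 0.05 was found for 12 of 30, and for 2183 of all 13306 tested genes. DESeq2 called 1 member lower, ACTA2, with 0.594% of all genes called lower. Both inhibitor libraries lay above both controls for 10 members and below them for 5, with 20.5% of all genes above and 20.3% below. The median of the members was 0.25 without inhibitor control replicate 2 and 0.24 without inhibitors replicate 1, against 0.0724 without inhibitor control replicate 1 and 0.00743 without inhibitors replicate 2. Without inhibitor control replicate 1 and inhibitors replicate 2 together it was -0.10. Most members stood higher in replicate 2 of both groups, so this last fit sets the higher control library against the lower treated one, and by that construction it lowers their values. Leaving out inhibitor control replicate 2 or inhibitors replicate 1 drops the higher control or the lower treated library of most members. By the same construction that raises their values. Without inhibitors replicate 1 the counts were 11 higher and 2 lower (3.65% and 3.22% of all genes), without inhibitor control replicate 2 they were 6 and 2 (2.60% and 2.12%), and without inhibitor control replicate 1 and inhibitors replicate 2 together 0 and 4 (1.70% and 2.02%). In these fits a lone library was assumed to vary like the other groups.

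The single members with the smallest p in this arm pointed in different directions. ACTA2 had 532 and 502 CPM in the inhibitor control and 403 and 424 CPM with the inhibitors (-0.32 ± 0.071, adjusted p = 0.105). It was lower under every one of the 18 alternatives, between -0.37 and -0.28, and passed under 5, among them the fit without those libraries (-0.32, adjusted p = 0.00427). LMOD1, at 3.78 and 4.24 CPM against 2.63 and 2.08 CPM, had a log2 fold change of -0.74 ± 0.21 (adjusted p = 0.146) on 22 to 83 counts per library, and passed under none. FLNC had 114 and 142 CPM in the control and 159 and 289 CPM with the inhibitors (0.81 ± 0.21, adjusted p = 0.136). Its highest value came from inhibitors replicate 2. The change was 0.31 without that library, 1.17 without inhibitors replicate 1 (adjusted p = 0.00043) and 0.17 without inhibitor control replicate 1 and inhibitors replicate 2. MYH9 had 1459 and 2070.1 CPM in the control and 2085 and 2817 CPM with the inhibitors (0.47 ± 0.16, adjusted p = 0.191). Leaving out 1 library of this arm gave 0.23 to 0.75, and leaving out both gave 0.0090. CNN2 had 15.4 and 35.3 CPM in the control and 35.9 and 62.4 CPM with the inhibitors (0.94 ± 0.32, adjusted p = 0.201), with 0.45 to 1.65 without 1 library of this arm and 0.021 without both. For MYH9, CNN2 and FLNC alike the libraries left out together were the lower control and the higher treated one, so a smaller difference follows from the choice. Inhibitor control replicate 2 was the higher control and inhibitors replicate 1 the lower treated library for these genes. Leaving out either of them enlarges the difference, which likewise follows from the choice. CALD1 stood at 0.31 ± 0.092, MYL6 at -0.25 ± 0.081, CFL1 at 0.24 ± 0.087, LIMA1 at 0.19 ± 0.070, VCL at 0.28 ± 0.11 and DSTN at 0.18 ± 0.074, with adjusted p from 0.159 to 0.271. TAGLN had 7.62 and 41.0 CPM in the control and 26.3 and 49.4 CPM with the inhibitors, so the groups overlapped (0.62 ± 0.53, adjusted p = 0.583). Its log2 fold change was 2.28 without inhibitor control replicate 2 (adjusted p = 0.0116) and -0.64 without inhibitor control replicate 1 and inhibitors replicate 2 together (adjusted p = 0.00131), a turn of sign between 2 fits that both pass. The remaining members, SRF and CNN1 among them, had adjusted p from 0.285 to 0.996.

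**Figure D3:**
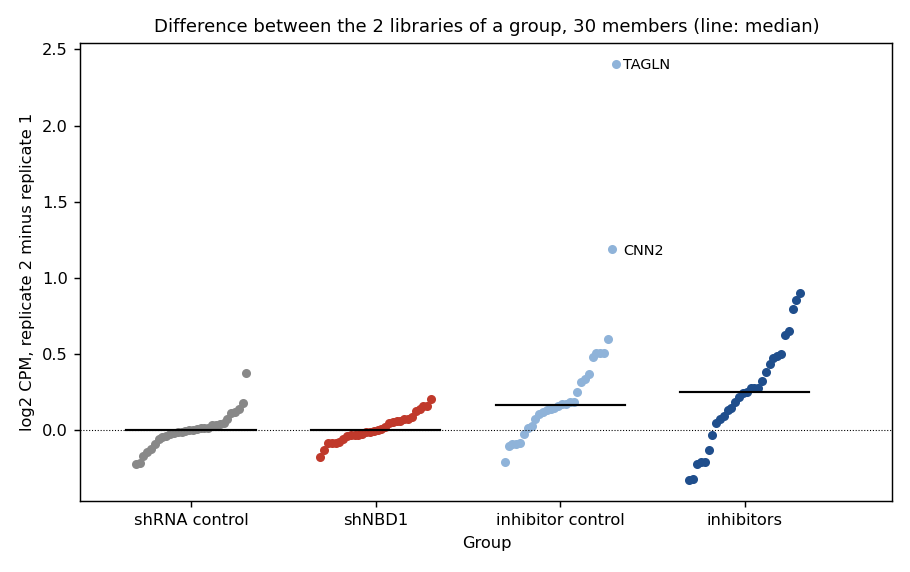
Difference in log2 CPM between replicate 2 and replicate 1 (y axis) of each of the 30 tested members, in each group (x axis), with a line at the median. The medians are 0.00355 and -0.00063 in the shRNA control and under shNBD1, and 0.17 and 0.25 in the groups of the inhibitor arm, and TAGLN in the inhibitor control is highest at 2.41.

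The members differed between libraries of one group in the inhibitor arm. Replicate 2 was above replicate 1 for 24 of the 30 in the inhibitor control and for 23 in its treated group, against 16 and 15 in the groups of the shRNA arm, with 50.3% and 49.8% of all genes in the inhibitor groups. TAGLN was 7.62 and 41.0 CPM in the inhibitor control libraries, CNN2 15.4 and 35.3 CPM, FLNA 2018 and 3053 CPM and TAGLN2 934 and 1302 CPM. With the inhibitors, FLNC was 159 and 289 CPM, FHL2 48.5 and 76.3 CPM and PDLIM7 49.9 and 77.0 CPM. MYL6, MYH10, TMSB10 and CFL2 were the other way round, higher in replicate 1 of both groups of that arm. So most members stood lower in replicate 1 of each inhibitor group, and these few higher.

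The test of the difference between the treatment effects, which uses all 4 groups, gave 6 members with a more positive change under shNBD1 and none with a more negative one, where 3.48% and 3.96% of all genes did so (7.44% in either direction). CNN1 differed by 2.68 ± 0.36 on the log2 scale (adjusted p = 0.00248), TAGLN by 3.75 ± 1.01 (0.0481), TAGLN2 by 0.86 ± 0.18 (0.0175), MYL6 by 0.61 ± 0.11 (0.0125), TPM4 by 0.61 ± 0.12 (0.0161) and ACTA2 by 0.51 ± 0.10 (0.015). ACTA2 and MYL6 reached this through opposite signs, above their control with shNBD1 and below it with the inhibitors in both libraries each. For TPM1, with a difference of 0.76 ± 0.21, the adjusted p was 0.0532, and for the other 23 members it was at least 0.082. The median difference was 0.34, against 0.00262 over all genes. CNN1 passed under all 17 alternatives. TAGLN2, TPM4 and MYL6 lost the call when any 1 library of the shRNA arm was left out (adjusted p up to 0.0938, 0.0953 and 0.101). ACTA2 lost it without shRNA control replicate 1 or either shNBD1 library (up to 0.114), and TAGLN when any 1 library of that arm was left out, without inhibitors replicate 1, with a mean of at least 50 counts required, and with limma-voom (up to 0.198). The counts were 13 higher and none lower without inhibitors replicate 2, 11 and none without inhibitor control replicate 1, and 22 higher and 2 lower without both, where 4.09%, 3.99% and 14.2% of all genes were higher. Without shRNA control replicate 2 there were 2 higher (0.707% of all genes). Without shRNA control replicate 1, shNBD1 replicate 1 or shNBD1 replicate 2 there was 1 each (0.604%, 1.14% and 0.663%).

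The controls themselves were not alike. Against the inhibitor control, 7 members were lower and 2 higher in the shRNA control, where 13.6% of all genes were lower and 13.5% higher (27.1% in either direction). Both shRNA control libraries lay below both inhibitor controls for 15 members and above them for 4, with 33.4% of all genes below and 33.7% above. This comparison shares the shRNA control with that of shNBD1, so a low value there enters both with opposite sign, and the levels are given side by side. CNN1 had 0.782 ± 0.167 CPM in the shRNA control and 5.32 ± 0.215 CPM under shNBD1, and 3.93 ± 0.213 CPM in the inhibitor control and 4.29 ± 1.02 CPM in its treated group (mean ± SD, n = 2 each). For TAGLN the means were 1.60 ± 0.179, 33.4 ± 2.17, 24.3 ± 23.6 and 37.8 ± 16.3 CPM in the same order. The shRNA control was the lowest group for both genes, with neither of its libraries overlapping any other group. The log2 fold change between the controls was -2.34 ± 0.29 for CNN1 (adjusted p = 0.000368), -3.91 ± 0.81 for TAGLN (0.00657) and -0.62 ± 0.12 for TAGLN2 (0.00571).

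ACTA2 separated the arms, at 291 and 320.4 CPM in the shRNA control and 532 and 502 CPM in the inhibitor control (-0.76 ± 0.071, adjusted p = 0.000103), and all 4 libraries of the inhibitor arm lay above all 4 of the other. FLNC did so too, at 51.7 and 56.1 CPM in the shRNA control and 114 and 142 CPM in the other control (-1.25 ± 0.22, adjusted p = 0.00292). CFL1 (-0.40 ± 0.087, adjusted p = 0.0085) and CALD1 (-0.31 ± 0.093, 0.0312) were lower in the shRNA control, and TPM3 (0.27 ± 0.069, 0.016) and CFL2 (0.28 ± 0.086, 0.0336) higher. MYH9, TPM4, VCL, LIMA1, FHL2 and PDLIM7, which rose with shNBD1, differed by -0.15, 0.058, 0.011, -0.046, 0.0056 and 0.20 between the controls and did not pass. All of these had their highest group mean with shNBD1. So did CNN1, TAGLN2 and CALD1, which had their lowest in the shRNA control. MYH9 and LIMA1 also had their lowest group mean in the shRNA control, so the patterns overlap. ACTA2, CNN1 and FLNC passed under all 18 alternatives. TAGLN, TAGLN2, CFL1 and TPM3 lost the call without either shRNA control library (adjusted p up to 0.0787, 0.0524, 0.0791 and 0.118). TAGLN also lost it with limma-voom. CALD1 and CFL2 lost the call without either shRNA control library, without either shNBD1 library and without inhibitor control replicate 2. CFL2 also lost it with DESeq2 and with upper-quartile factors.

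**Figure D4:**
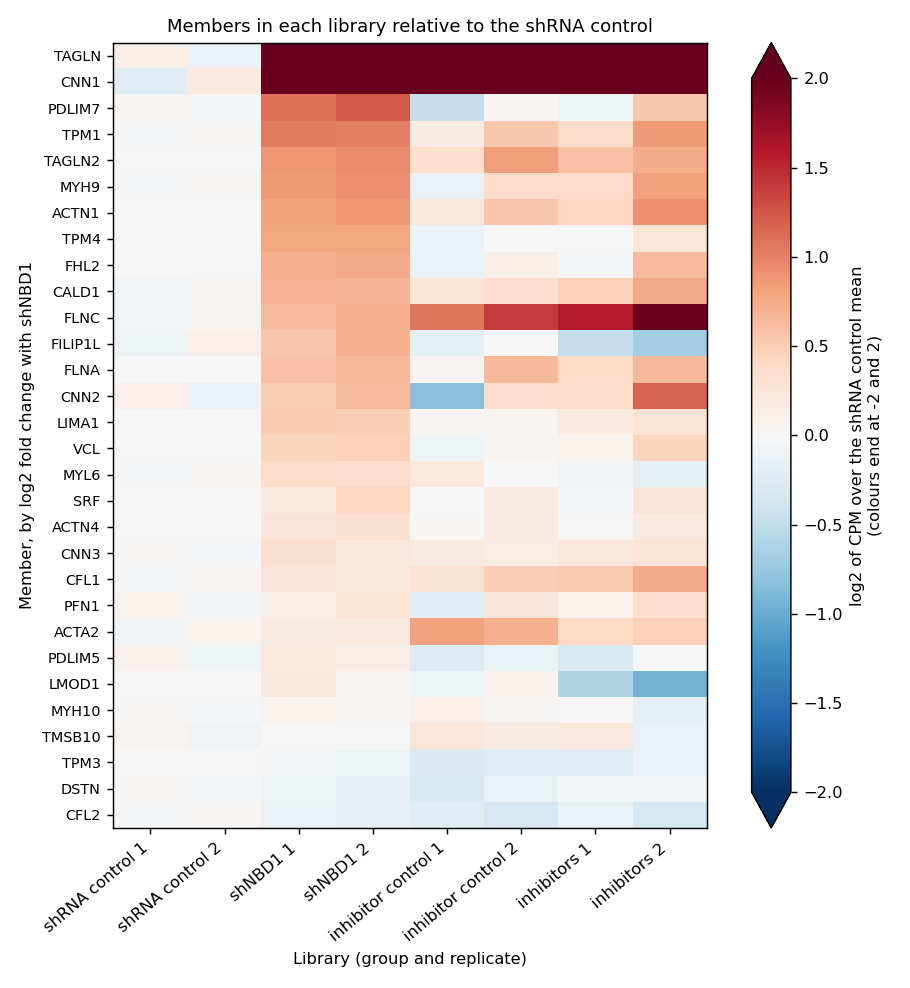
Level of each tested member (y axis, ordered by the log2 fold change with shNBD1) in each library (x axis) as the log2 of its CPM over the mean of the shRNA control, with colours that end at -2 and 2. TAGLN and CNN1 are beyond the scale in all 6 libraries outside the shRNA control, PDLIM7, TPM1 and TPM4 are highest with shNBD1, and FLNC is highest with the inhibitors.

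All 6 tested members with a CArG box in their window had both shNBD1 libraries above both controls. So did 26 of all 30 tested members, these 6 included, and 34.7% of all genes. Of these TPM4, FLNA and FHL2 rose, and SRF, CNN2 and FILIP1L did not pass. Their median log2 fold change was 0.63, with a range from 0.31 to 0.78, and that of the 23 tested members with a window but no box was 0.29, of which 12 rose, with a range from -0.15 to 2.77. These medians are given as a description, and the difference between them was not tested. With the inhibitors the medians were 0.16 and 0.0926, and no member of either kind passed.

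The cofactors that bring SRF into play changed in both directions with shNBD1. Of 8 tested 3 rose and 2 fell, with a median of -0.40, where 9.18% of all genes rose and 9.15% fell. MRTFA, the actin-sensing cofactor, rose from 53.3 and 53.7 to 68.0 and 76.4 CPM (0.43 ± 0.12, adjusted p = 0.0316), and its paralog MRTFB fell from 44.0 and 39.0 to 32.1 and 28.7 CPM (-0.45 ± 0.11, adjusted p = 0.0161). So the paralogs moved in opposite directions. ELK3, a cofactor of the ternary complex family, rose (0.62 ± 0.17, adjusted p = 0.0337), as did FLII, a gelsolin-related protein that binds actin (0.42 ± 0.065, 0.00212). The fifth was ELK4, another ternary complex factor (-0.47 ± 0.13, 0.0357). None of the 8 passed with the inhibitors, and the smallest p belonged to MRTFB (-0.28 ± 0.10, adjusted p = 0.235) and ELK4 (0.20 ± 0.12, 0.422).

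Other known targets of SRF and MRTF were a list with no member in it, chosen with earlier results of these data known. They rose in 10 of 14 cases with shNBD1 and fell in none, with a median of 0.88, where 9.18% of all genes rose and 9.15% fell. For 2 of the 14, FOS and EGR1, both shNBD1 libraries lay below both controls without passing, as for 34.3% of all genes. FOS went from 2.32 and 1.72 to 1.21 and 0.817 CPM, and EGR1 from 4.45 and 5.07 to 3.91 and 4.01 CPM. ITGA5, an integrin chain of the fibronectin receptor, rose from 47.1 and 50.4 to 102 and 105 CPM (1.09 ± 0.097, adjusted p = 9.02e-05). ANKRD1, a stretch-responsive repressor also driven by YAP, rose from 5.25 and 4.42 to 66.2 and 64.0 CPM (3.74 ± 0.55, 0.0017). CSRP1, a LIM protein of actin bundles, and THBS1, a matrix glycoprotein, rose by 0.82 ± 0.12 and 1.49 ± 0.22 (adjusted p = 0.00152 and 0.00184). With the inhibitors 1 of the 14 passed, THBS1, where 0.12% of all genes did. THBS1 had 138 and 146 CPM in the control and 265 and 438 CPM with the inhibitors (1.30 ± 0.18, adjusted p = 0.0297). Fitted on the 4 libraries of that comparison alone, 0 of 13263 genes rose and 0 fell, so the call of THBS1 was lost there. The median of the 14 was 0.49. THBS1 was lower in both groups of the shRNA arm, with 13.2 and 11.9 CPM in its control and 36.1 and 34.4 CPM with shNBD1, and differed by -3.50 ± 0.21 between the controls (adjusted p = 8.09e-06).

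The Arp2/3 complex starts branches on filaments, and of 12 tested genes of it and its activators none rose with shNBD1 and 1 fell, ARPC3 (-0.29 ± 0.069, adjusted p = 0.0156), with a median of -0.0306. That is near the share of all genes that fell (9.15%), and a count of none among 12 says little beside the 9.18% that rose. With the inhibitors none of the 12 passed, led by CTTN (0.36 ± 0.097, adjusted p = 0.142) and ARPC2 (-0.19 ± 0.088, 0.308).

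Further proteins of monomer binding and filament turnover were mixed, with 3 that rose and 2 that fell of 11 and a median of 0.0675. Of all genes 9.18% rose and 9.15% fell. CORO1C, a coronin that helps to take filaments apart, fell from 259 and 257 to 130.3 and 126 CPM (-1.01 ± 0.068, adjusted p = 2.09e-05), and TMSB4X, the main thymosin, fell too (-0.35 ± 0.098, 0.031). GSN, gelsolin, and CAP2 rose by 0.48 ± 0.081 and 0.40 ± 0.082 (0.00308 and 0.00818). With the inhibitors none passed, and CORO1C (0.17 ± 0.067) and CORO1B (0.21 ± 0.093) had the smallest p (adjusted p = 0.249 and 0.292). Paralogs of the members rose in 8 of 16 tested cases with shNBD1 and fell in none, beside the same shares of all genes. Their median was 0.39, and this list too was chosen with earlier results of these data known. Among them were MYL12A, a regulatory light chain of non-muscle myosin (0.50 ± 0.071, adjusted p = 0.00132), PDLIM1 (0.42 ± 0.067, 0.0024), PDLIM3 (1.02 ± 0.17, 0.00332) and MYH11, the myosin heavy chain of smooth muscle (0.81 ± 0.15, 0.00461). With the inhibitors none of the 16 passed, and MYH11 (0.48 ± 0.14) and PDLIM4 (0.52 ± 0.17) had the smallest p (adjusted p = 0.15 and 0.193).

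Genes of these lists also passed between the controls, where 27.1% of all tested genes did so. Of the 14 other SRF targets 5 were lower and 1 higher in the shRNA control, led by THBS1, then ITGA5 (-0.44 ± 0.097), CSRP1 (-0.48 ± 0.12) and ANKRD1 (-2.06 ± 0.59), with adjusted p up to 0.0261. Of the 16 paralogs 6 were lower and none higher, among them PDLIM4 (-1.69 ± 0.22), ACTG2 (-0.68 ± 0.10), MYL12A (-0.41 ± 0.070) and MYL12B (-0.35 ± 0.070), up to 0.00514. So the calls in the paralogs went one way, and those of the other lists with calls went both ways. Of the 12 Arp2/3 genes 3 were higher, such as ARPC5 (0.39 ± 0.080) and ACTR3 (0.32 ± 0.072), and 2 lower, ARPC5L (-0.66 ± 0.095) and CTTN (-0.37 ± 0.098), up to 0.0186. Of the 11 genes of the turnover list 4 passed, near the share of all genes: 1 was higher, TMSB4X (0.77 ± 0.099), and 3 lower, PFN2 (-0.45 ± 0.078), CORO1B (-0.40 ± 0.094) and TMSB15A (-0.85 ± 0.28), up to 0.0448. None of the 8 SRF cofactors passed, with the smallest p for ELK3 (-0.34 ± 0.17) and FLII (0.081 ± 0.065).

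Markers of other cell types were counted beside these values. All 6 smooth muscle markers had counts, and their summed level was 444.2 and 467.3 CPM in the shRNA control, 647.5 and 643.0 under shNBD1, 676.1 and 745.1 in the other control and 650.8 and 818.9 under the inhibitors, most of it from ACTG2, whose reads cannot be told apart from those of other actins. MYH11, DES and ACTG2 rose with shNBD1 (0.81 ± 0.15, 0.53 ± 0.16 and 0.52 ± 0.10, adjusted p = 0.00461, 0.0386 and 0.0063), and SMTN, smoothelin, did not pass, at 23.2 and 22.2 CPM in the control and 15.9 and 19.9 CPM with shNBD1 (-0.34 ± 0.13, adjusted p = 0.0857). MYOCD, the master cofactor of smooth muscle, had 0 to 6 counts in any library and SYNPO2 5 to 25. All 7 fibroblast markers had counts, most of them from COL1A1. Their summed level was 46.1 and 46.1 CPM, 64.0 and 68.2, 33.2 and 52.0, and 50.04 and 68.1 in the same order of groups. LUM rose with shNBD1 (0.96 ± 0.24, adjusted p = 0.022), on 22 and 16 counts in the control and 37 and 41 with shNBD1. DCN had 0 to 2 counts and COL1A2 1 to 10. The 7 endothelial and blood markers summed to 43.4 to 44.7 CPM, 31.5 to 31.6, 15.5 to 19.1 and 14.4 to 17.6 in that order, most of it from CD68. CD68, of macrophages, fell with shNBD1 (-0.51 ± 0.12, adjusted p = 0.017), and PTPRC had 0 to 2 counts and HBB 0 to 6. Of 6 genes that 293 cells are known for, 5 had counts and NEFL was not analysed here, and the sum was 5142 and 5181 CPM, 8170.3 and 8508 CPM, 4513 and 5536 CPM, and 5004 and 5574 CPM in that order. VIM, vimentin, KRT18 and KRT8, keratins, rose with shNBD1 (0.76 ± 0.080, 0.70 ± 0.12 and 0.46 ± 0.14, adjusted p = 0.000248, 0.00332 and 0.0389). PAX2 had only 20 to 62 counts. The part of these markers in the change of the members was not tested.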

How the data were processed

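Ribosome footprints of 293T cells were sequenced in 8 libraries, 2 per group. Reads were handled with cutadapt, Bowtie and the GRCh38 build, per the submitters' processing notes. How reads matching several genes were treated, versions and the counting tool: not given in the sources used here. Raw counts, whole numbers for each gene and transcript, were deposited by the authors, with 1 library per file, and a feature not listed was taken as 0. Features were summed per symbol. All 35 symbols were found in the RefSeq table (GRCh38.p14) that supplied coordinates and promoter windows, the first window listed per symbol.

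Counts were fitted with edgeR 4.0.16 in R 4.3.3: filterByExpr (minimum count 10, minimum total 15), TMM scaling and a quasi-likelihood model of the 4 groups fitted to all 8 libraries (residual degrees of freedom: 4), at an adjusted p of 0.05. The script was tested on simulated counts. Alternatives used DESeq2 1.42.0, limma 3.58.1, other scalings and filters, a replicate block, left-out libraries, and the 4 libraries of a comparison alone. Members and lists were chosen with earlier results of these data known. Members were all accounted for, and each further list named up to 4 called genes of smallest p, or 2 where none was called. Some further listed genes are not reported here. The files hold no molecular identifiers, so depth bounds counting error only.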

Additional observations from a re-analysis of the deposited data

Results flagged for a closer look

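For 17 genes the change with shNBD1 and the change with the inhibitors differed by the interaction test of edgeR (adjusted p under 0.05), 6 members and 11 genes of the other lists. For the members the difference on the log2 scale, shNBD1 effect minus inhibitor effect, was 3.75 for TAGLN, 2.68 for CNN1, 0.86 for TAGLN2, 0.61 for MYL6, 0.61 for TPM4 and 0.51 for ACTA2. The inhibitor control libraries of TAGLN stood at 7.62 and 41.0 CPM, and its difference ran from 2.08 to 5.01 over 17 alternatives.

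Among SRF cofactors the difference was 0.40 for FLII and -0.67 for ELK4. Among proteins of filament turnover it was -1.18 for CORO1C, 0.55 for GSN and 0.53 for CAP2. Among SRF targets it was 0.89 for CSRP1, 0.73 for ITGA5 and -1.29 for EGR1, an immediate early factor at 4.45 and 5.07 CPM in the shRNA control, 3.91 and 4.01 CPM under shNBD1, 4.86 and 4.85 CPM in the other control and 7.56 and 12.8 CPM under the inhibitors. Among paralogs it was 0.48 for MYL12A and 0.44 for PDLIM1, and for VIM, of the 293 list, 0.82. EGR1 and ELK4 have adjusted p of 0.0477 and 0.0496, close to the threshold.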

How the results depend on the processing

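With shNBD1, 16 members rose and none fell; leaving out 1 library gave 8 to 18, and on the 4 libraries alone and without inhibitor control replicate 1 and inhibitors replicate 2 together 24 rose and 1 fell in each, where 21.5% and 20% of all genes rose and 20.4% and 19.1% fell. No member called with all libraries in edgeR's test changed sign under any alternative. TAGLN and FLNA, not called with the inhibitors there, passed as higher without inhibitor control replicate 2 (2.28 and 0.47) and as lower without both libraries (-0.64 and -0.25). With the inhibitors, 0 rose and 0 fell: without 1 library 0 to 11 rose and 0 to 2 fell, with no filter 1 and 1, with DESeq2 0 and 1, and without both libraries 0 and 4. In the difference, 6 and 0 became 22 and 2 without both libraries, and 1 to 13 and 0 to 1 without 1 library. Between the controls, 2 higher and 7 lower became 1 higher with DESeq2 and with upper-quartile factors, 16 lower without both libraries (21.2% of all genes), and 0 to 3 and 3 to 11 without 1 library.

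No label pairs the replicate numbers. Same-numbered libraries deviated from their group means with a correlation over genes of 0.42 in the inhibitor arm and 0.0152 in the shRNA arm. With the replicate number as a block, MYH9, FLNC, CNN2 and CALD1 rose and ACTA2 fell with the inhibitors, 4 and 1 members where 2.67% and 2.40% of all genes did so. The block gave 10 higher in the difference (6.74% of all genes), 19 higher with shNBD1 (13.0%) and 11 lower in the shRNA control (17.5%). The causes of these shifts were not tested. Members of low counts (CNN1, FILIP1L, LMOD1) are limited by depth.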
